A study of Mus musculus with 8 samples.

Results

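Chga, Chgb, Scg2, Scg3, Scg5, Vgf, Ttr and Rbp4 encode proteins that endocrine cells store in, or release with, their dense-core secretory granules. They were chosen by name and matched to the gene symbols of the count table. All 8 were found among its 55536 genes, and all 8 were among the 16333 genes with enough counts to be tested. Poly(A) RNA had been sequenced from alphaTC6 cells, a mouse line of glucagon-producing pancreatic alpha cells, after a 48 h reverse transfection with a lipid reagent. A pool of siRNAs aimed at Klf4, a zinc finger transcription factor, had been given to 4 of the 8 samples, and a scramble siRNA (siScramble), the control, to the other 4. The series asks which genes Klf4 regulates in alpha cells. Batch 1 held scramble replicates 1 and 2 and Klf4 siRNA replicates 1, 2 and 4, and batch 2 held scramble replicates 3 and 4 and Klf4 siRNA replicate 3, per the labels, which do not say what the batches were. All cells were of a single line labelled WT, both groups had been transfected, and no untransfected cells were among the samples. The design text calls the 4 libraries of a group biological replicates, without saying whether they were separate cultures. The extraction text speaks of isolated islets, whereas each sample is labelled as the cell line.

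Granins are acidic proteins that bind calcium and condense in the late Golgi, where they help prohormones pack into dense-core granules, and they are released with the hormone when the cell is stimulated. Chromogranin A (Chga), chromogranin B (Chgb), secretogranin II (Scg2) and VGF (Vgf) are cut at pairs of lysine and arginine residues into peptides, secretogranin III (Scg3) tethers chromogranin A to the granule membrane, and 7B2 (Scg5) is the chaperone that brings the prohormone convertase PC2 to activity. Transthyretin (Ttr) carries thyroid hormone and binds retinol-binding protein 4 (Rbp4), which carries retinol. Both are best known as liver plasma proteins, and Ttr is also a product of pancreatic alpha cells.

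The acidity of the granins can be read from their codons. The densest run of 20 codons is shown for both chromogranins, since Chgb passed the test for Klf4 siRNA and Chga did not. The sequences are from the GENCODE M21 transcripts on GRCm38, and capitals mark the codons for aspartate or glutamate. That of Chgb lies on the plus strand at chr2:132792911-132792970 (codons 258 to 277, 13 of them acidic). That of Chga lies on the plus strand at chr12:102562771-102562830 (codons 336 to 355, 12 of them acidic).
Chgb: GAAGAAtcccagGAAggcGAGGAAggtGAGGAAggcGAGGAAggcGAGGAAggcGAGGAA
Chga: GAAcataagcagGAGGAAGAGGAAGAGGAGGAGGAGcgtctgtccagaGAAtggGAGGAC

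Over the whole longest coding sequence, acidic codons made up 23.2% of 677 codons in Chgb, 21.8% of 463 in Chga, 20.3% of 617 in Vgf, 19.7% of 471 in Scg3 and 19.1% of 617 in Scg2. These lay at or above the percentile 97.0 of 21481 genes, whose median was 11.2%. Scg5 (14.6%) and Rbp4 (14.3%) lay at percentiles 84.7 and 82.6, and Ttr (10.9%) at percentile 46.6. Neighbouring codons for lysine or arginine, which spell the pairs where prohormone convertases cut, were densest in Chgb (23, or 3.40 per 100 codons, percentile 92.6) and Scg5 (7, or 3.30, percentile 92.1), followed by Vgf (16, or 2.59, percentile 84.6) and Chga (9, or 1.94, percentile 70.9). Rbp4 (4, or 1.63), Scg3 (7, or 1.49) and Scg2 (9, or 1.46) were near the median of all genes, 1.40 per 100 codons, and Ttr had 1 (0.68).

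Several granin promoters are known to be read by cAMP-responsive factors, which bind the palindrome TGACGTCA or its shorter form TGACG. RefSeq promoters of GRCm38.p6, from 250 bases before to 50 bases after the gene start, were on hand for 6 of the 8 genes (not for Vgf and Ttr). A TGACG on either strand stood in a promoter of each of the 6 genes, and 20.8% of 32851 promoters held one. Rbp4 had 2 promoters in the table and the word in 1 of them, so the count by gene and the share by promoter are not on the same footing. The full palindrome stood in those of Chgb and Scg2, against 1.79% of all promoters. The 6 windows of 30 bases around the word are shown 5′ to 3′ on the gene's strand, since the word is common to these promoters while the genes differed in what was measured. Capitals mark TGACGTCA where it is whole and TGACG elsewhere. In order they lie at chr12:102554886-102554915 (plus), chr2:132781559-132781588 (plus), chr1:79440076-79440105 (minus), chr9:75684068-75684097 (minus), chr2:113829248-113829277 (minus) and chr19:38124965-38124994 (minus).
Chga: gggcggtcctaTGACGtaatttcctgggtg
Chgb: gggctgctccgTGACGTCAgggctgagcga
Scg2: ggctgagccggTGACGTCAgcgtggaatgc
Scg3: cgctgggtcgcTGACGccatcctcacgcct
Scg5: aaggaggtaaaTGACGttcataggggtcga
Rbp4: gacggcaaggcTGACGgaggggccccgcgt

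The copy shown is the one on the gene's strand before the start. The promoter of Scg5 held another on that strand and 1 on the opposite strand. The copy shown began 44 bases before the RefSeq start in Chga, 72 in Chgb, 68 in Scg2, 30 in Scg3, 175 in Scg5 and 172 in Rbp4. In GENCODE, the windows of Chga, Scg3 and Scg5 lie outside the exons of their gene. Those of Chgb and Scg2 lie in the untranslated part of a first exon (in 1 of 1 and 1 of 2 transcripts), and that of Rbp4 overlaps coding sequence in 2 of 4 transcripts. CACCC, a word bound by KLF factors, stood in the promoters of Chga, Chgb, Scg5 and Rbp4 (57.5% of all promoters held it), and GGGCGG in the same 4 (35.7% of all), in Rbp4 again in 1 of its 2 promoters. Scg2 and Scg3 held neither word in this window. The words were searched on both strands, and TGACG is contained in TGACGTCA. A match describes letters and is not a measured binding site.

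The libraries held 45954151 to 64185987 counts, of which the 8 genes took 0.833% to 0.944%. Counts were divided by the size of their library and set on a shared scale, CPM. Klf4 itself was at 39.2, 35.1, 46.3 and 46.8 CPM in the scramble libraries (replicates 1 to 4, here and throughout) against 12.5, 11.5, 19.8 and 18.8 CPM in the Klf4 siRNA libraries, a fall to 39.8% of the control (log2 fold change -1.33, SE 0.17, edgeR adjusted p = 0.0083). The alpha cell label was met by 9 of 10 markers with enough counts to test, Gc being the exception with at most 4 counts. The summed alpha markers ran from 6360 to 14220 CPM in scramble and from 6138 to 12890 CPM in Klf4 siRNA libraries. The beta cell genes Ins1, Ins2, Pdx1 and Ucn3 were at 0 counts in every library, and the summed beta list (263.5 to 341.4 and 259.7 to 305.9 CPM) came from genes such as Nkx6-1 and G6pc2. Sst and Hhex (delta), Ppy and Ghrl had at most 3, 9 and 14 counts. The summed lists of the other cell types stayed at or below 7.32 CPM for acinar, 6.48 for duct, 2.50 for blood, 0.574 for fibroblast and 0.437 CPM for endothelial cells. Hepatocyte markers, listed because the liver makes Ttr and Rbp4, summed to 3.15 to 5.35 CPM, and Alb had at most 89 counts.

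Chga was the most abundant of the 8 transcripts. Per kilobase of the longest annotated transcript, its level averaged 1972 CPM per kb (SD 97.8, n = 8 libraries of both treatments). Rbp4 followed with 1083 ± 48.0, Scg2 with 832.4 ± 142.9 and Ttr with 423.6 ± 93.2 CPM per kb. The ranges of these 4 genes over the libraries did not overlap with each other. The other 4 lay lower and close together: Scg5 at 184.5 ± 21.6, Vgf at 183.5 ± 11.8, Chgb at 127.4 ± 33.6 and Scg3 at 113.1 ± 3.48 CPM per kb. Scg5 was above Vgf in 3 of 8 libraries, and Chgb was above Scg3 in 4 of 8, so the order within these pairs was not beyond their spread. Vgf was above Chgb in all 8 libraries although their ranges over the libraries overlapped. With the mean length of a gene's transcripts in place of the longest, 5 of the 8 genes held their rank, and Scg3 moved most, from 113.1 to 252.5 CPM per kb and from rank 8 to rank 5, level with Vgf (252.3) and Scg5 (247.4) and above Chgb (127.4). The order of these 4 genes thus also depends on the length used.

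**Figure D1:**
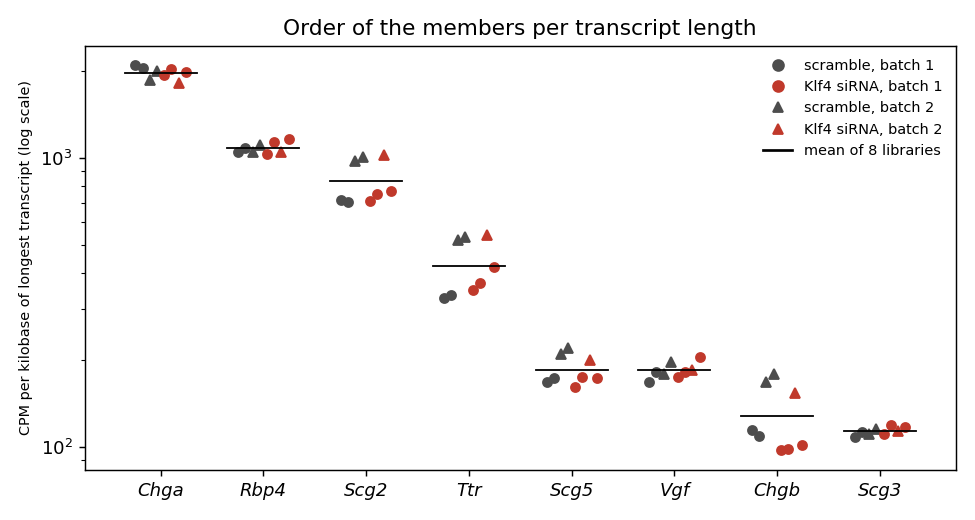
Level of each gene in CPM per kilobase of its longest transcript, on a log axis, with a point for each of the 8 libraries by treatment and batch. Chga, Rbp4, Scg2 and Ttr are separated from each other, and Scg5, Vgf, Chgb and Scg3 overlap with a neighbour.

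After Klf4 siRNA, chromogranin B fell by a modest amount and no other gene of the 8 passed the test. Chgb (GRCm38, chr2:132781278-132795079, plus strand, 5 exons) was at 313.7, 297.5, 460.4 and 489.0 CPM in the scramble libraries, against 265.8, 268.7, 418.9 and 277.7 CPM in the Klf4 siRNA libraries. The treatments overlapped because the batches lay far apart, while within each batch every Klf4 siRNA library was below both scramble libraries. In batch 1 the mean went from 305.6 to 270.7 CPM, and in batch 2 from 474.7 CPM to the 418.9 CPM of its only Klf4 siRNA library, ratios of 0.886 and 0.882. With batch in the model, Chgb stood at 88.5% of the control (log2 fold change -0.18, SE 0.030, 95% interval -0.240 to -0.114, edgeR adjusted p = 0.00044). With any 1 library left out it still passed (8 of 8 fits), at edgeR adjusted p from 0.000105 to 0.013. It did not pass without the batch term (log2 fold change -0.34, edgeR adjusted p = 0.56). In bulk RNA of a culture, fewer transcripts per cell and fewer cells that make them cannot be told apart.

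The count of 1 gene called among 8 has to be read beside the whole table. Of the 16333 genes tested, 1909 passed at an adjusted p under 0.05 (11.7%), with 6.81% lower and 4.88% higher after Klf4 siRNA. The share of the granule genes was thus near the background. Their log2 fold changes ran from -0.18 to 0.14 with a median of 0.035, and 3 were negative and 5 positive. The median size of a change, whatever its sign, was 0.056 for the 8 genes and 0.077 for all genes tested. The 4 scramble and 4 Klf4 siRNA libraries did not overlap in CPM for 10.5% of all genes and for 0 of the 8. Within batch 1, where 2 libraries stand against 3, they did not overlap for 37.5% of all genes and for 3 of the 8, namely Chga and Chgb (lower after Klf4 siRNA) and Ttr (higher). The share of all genes that were apart in both batches was not counted, and batch 2 has a single Klf4 siRNA library.

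**Figure D2:**
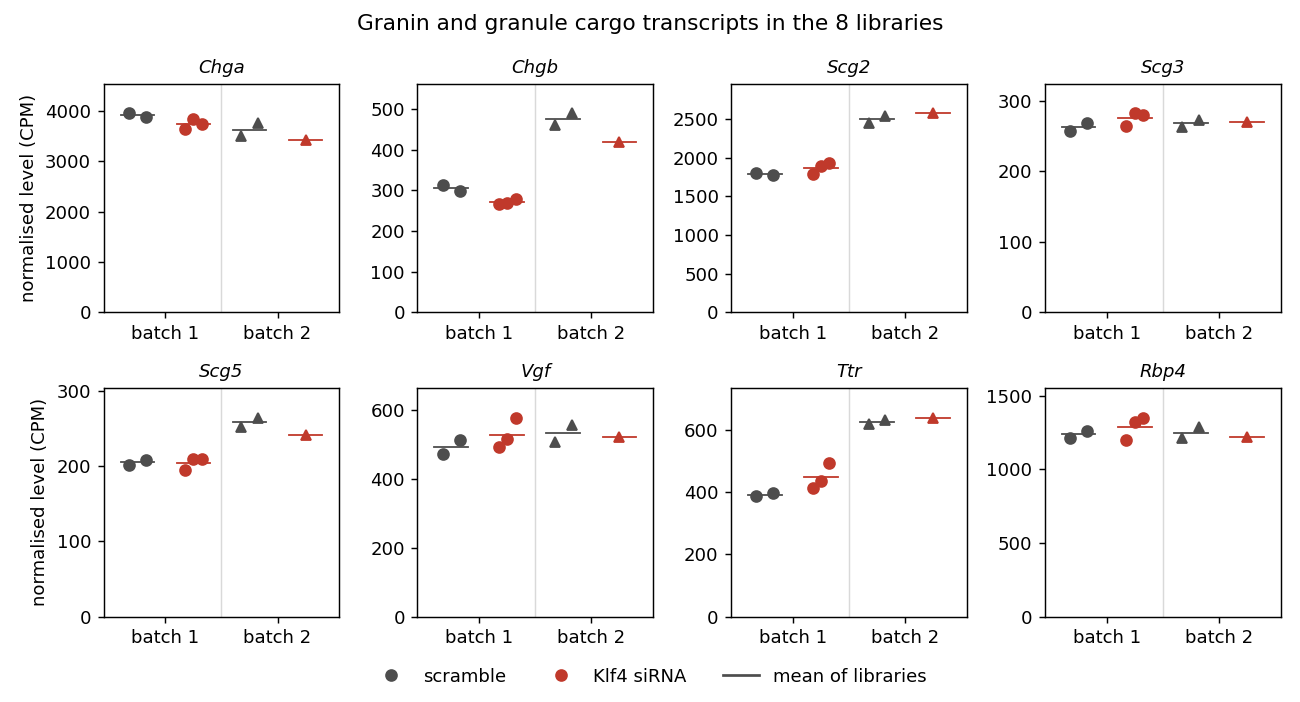
CPM of each gene in each of the 8 libraries, by batch and treatment, with a panel and an axis for each gene and lines at the mean of each treatment in a batch. Within each batch Chgb is lower in the Klf4 siRNA libraries. Chgb, Scg2, Scg5 and Ttr are higher in all 3 libraries of batch 2 than in all 5 of batch 1, an order not counted over all genes.

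Chromogranin A (chr12:102554969-102565028, plus strand) gave a smaller difference of the same sign that did not pass. It was at 3949, 3870, 3496 and 3758 CPM in the scramble replicates and at 3645, 3841, 3419 and 3734 CPM in the Klf4 siRNA replicates. Each Klf4 siRNA library was below both scramble libraries of its batch, by little, since scramble replicate 2 exceeded Klf4 siRNA replicate 2 by less than the scramble libraries differed from each other. The fit gave a log2 difference of -0.072 (SE 0.032, 95% interval -0.138 to -0.0052, edgeR adjusted p = 0.171), or 95.2% of the control.

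Secretogranin II, the precursor of secretoneurin (chr1:79434669-79440120, minus strand), was at 1803, 1775, 2452 and 2539 CPM in the scramble replicates and at 1787, 1888, 2572 and 1932 CPM in the Klf4 siRNA replicates. The treatments overlapped in batch 1, and the Klf4 siRNA library of batch 2 lay above both of its controls. Its log2 difference was 0.056 (SE 0.031, 95% interval -0.0093 to 0.122, edgeR adjusted p = 0.296). Secretogranin III (chr9:75643189-75684056, minus strand) was the steadiest of the 8, at 257.9, 267.9, 262.5 and 273.5 CPM in scramble and 264.5, 282.1, 269.6 and 279.3 CPM in Klf4 siRNA libraries. These values overlapped, with a log2 difference of 0.046 (SE 0.030, 95% interval -0.017 to 0.109, edgeR adjusted p = 0.394). The span of Scg3 overlaps that of Gm37871 on the opposite strand, and no source states whether the counting used strand.

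The PC2 chaperone Scg5 (chr2:113776362-113829121, minus strand) was at 201.8, 208.6, 252.4 and 264.6 CPM in scramble and at 194.4, 209.9, 241.4 and 209.5 CPM in Klf4 siRNA libraries. The treatments overlapped in batch 1, whereas the Klf4 siRNA library of batch 2 was below both controls. The log2 difference was -0.038 (SE 0.032, 95% interval -0.105 to 0.030, edgeR adjusted p = 0.541). Vgf (chr5:137026392-137033351, plus strand), a granin-like precursor induced by growth factors in neurons, was at 473.6, 512.4, 507.6 and 557.4 CPM in scramble and at 493.1, 515.8, 522.8 and 578.1 CPM in Klf4 siRNA libraries. They overlapped in both batches, and its interval was the widest of the 8, with a log2 difference of 0.056 (SE 0.062, 95% interval -0.087 to 0.199, edgeR adjusted p = 0.669).

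Of the 2 carrier proteins, transthyretin gave the larger difference and retinol-binding protein the smaller. Ttr (chromosome 18) was at 388.0, 396.4, 618.1 and 631.9 CPM in scramble and at 414.0, 435.8, 639.2 and 495.1 CPM in Klf4 siRNA libraries. In both batches Ttr was higher in each Klf4 siRNA library than in both scramble libraries, with a single Klf4 siRNA library in batch 2. Its log2 difference of 0.14 (SE 0.059, 95% interval 0.0017 to 0.270, edgeR adjusted p = 0.203) did not pass, and the change was 0.19 in batch 1 and 0.033 in batch 2. The DESeq2 Wald test called it (adjusted p = 0.0332), as did edgeR without a filter on low counts (adjusted p = 0.00142). Without Klf4 siRNA replicate 4, the highest of batch 1, it was 0.083, and with each library left out the edgeR adjusted p ran from 0.064 to 0.452. Rbp4 (chr19:38116629-38125281, minus strand) was at 1215, 1260, 1214 and 1283 CPM in scramble and at 1200, 1319, 1216 and 1350 CPM in Klf4 siRNA libraries. These overlapped in both batches, with a log2 difference of 0.025 (SE 0.038, 95% interval -0.055 to 0.105, edgeR adjusted p = 0.768).

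**Figure D3:**
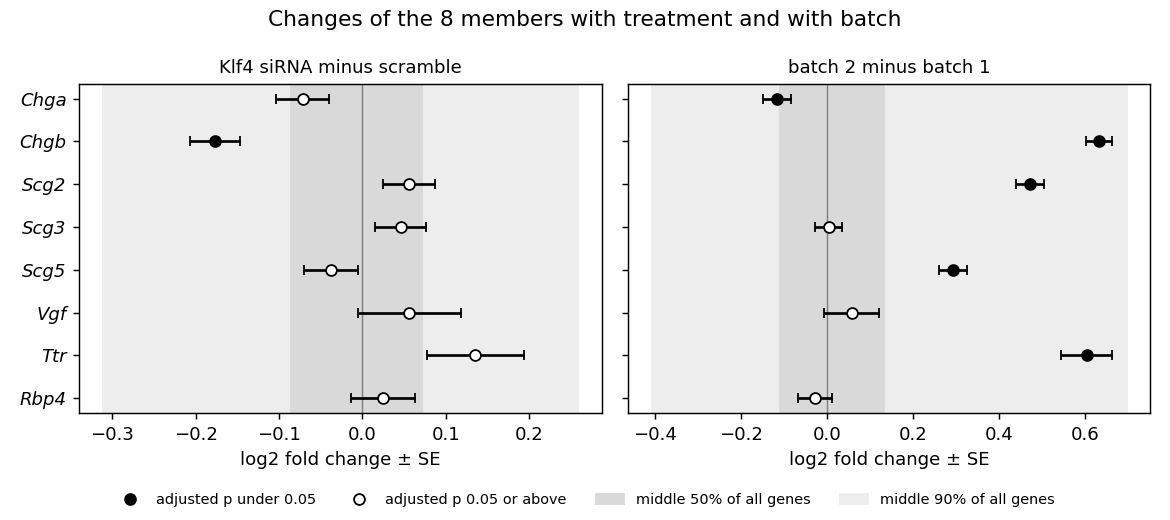
Log2 fold change of each gene with its standard error, for Klf4 siRNA against scramble and for batch 2 against batch 1, over shaded bands holding the middle 50% and 90% of all genes tested. For treatment all 8 genes lie inside the 90% band, from -0.311 to 0.259, and for batch Chgb has the largest value at 0.63.

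The difference between batches was larger than that between treatments, with a median size of 0.205 on the log2 scale for the 8 genes and 0.118 for all genes tested. Between batches 5 of the 8 passed, 4 higher and 1 lower in batch 2, where 32.7% of all genes tested passed (16.8% higher and 15.9% lower). Chgb was 1.55-fold higher in batch 2 (log2 fold change 0.63, SE 0.031, edgeR adjusted p = 1.7e-12) and Ttr 1.52-fold (0.60, SE 0.060, adjusted p = 6.04e-05). Scg2 was 1.39-fold higher (0.47, SE 0.032, edgeR adjusted p = 3.35e-10) and Scg5 1.22-fold (0.29, SE 0.033, adjusted p = 6.99e-07). For these 4 genes all 3 libraries of batch 2 lay above all 5 of batch 1. The share of all genes tested with batches apart in this way was not counted, so this is a description only. Chga was 1.08-fold higher in batch 1 (log2 fold change -0.12, SE 0.033, edgeR adjusted p = 0.0092) with batches that overlapped. This call was lost without scramble replicate 3 (edgeR adjusted p = 0.0779), in the scramble libraries alone (0.0504), and when Klf4 siRNA replicate 3 was left out (0.101).

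Vgf (log2 fold change 0.057, SE 0.064), Rbp4 (-0.029, SE 0.039) and Scg3 (0.0032, SE 0.031) did not pass between batches (edgeR adjusted p = 0.563, 0.631 and 0.953). Thus 1 of the 2 carriers and 4 of the 6 granins differed between batches. In the scramble libraries alone, the level in batch 2 over that in batch 1 was 1.59 for Ttr, 1.55 for Chgb, 1.39 for Scg2, 1.26 for Scg5 and 0.928 for Chga. The summed duct markers were at 1.32 to 1.74 CPM in batch 1 and 4.92 to 6.48 CPM in batch 2, and the summed beta list at 259.7 to 281.1 and 305.9 to 341.4 CPM, with 2 of its 4 tested genes higher and 1, Ero1lb, lower in batch 2 (log2 fold change -0.27). Of the duct markers, Sox9 and Spp1 were higher in batch 2, while Krt19 had at most 2 counts and Cftr 0. Blood markers summed to 1.56 to 1.66 and 2.00 to 2.50 CPM, nearly all of it Cd68, since Ptprc had at most 1 count and Adgre1 0. Hepatocyte markers summed to 4.39 to 5.35 CPM in batch 1 and 3.15 to 3.87 CPM in batch 2, where 1 of the 2 tested, Serpina1a, was lower (log2 fold change -0.72) and Alb was at 0.20 without passing. The summed alpha markers, Gcg among them, were at 6138 to 6407 and 12890 to 14220 CPM. The part of these lists in the differences between batches was not tested.

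Whether the response to Klf4 siRNA differed between batches was tested with an interaction term. None of the 16333 genes passed (0%, edgeR), and 540 had an unadjusted p under 0.05, with none of the 8 among them. limma-voom also called 0 of the 8. The interaction estimates of the 8 genes ran from -0.16 to -0.0055, and batch 2 has a single Klf4 siRNA library behind them.

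Because the batches moved the genes by different amounts, the proportions of granule proteins' transcripts were also compared, with ratios that were chosen after their values had been seen. Chgb counts per 100 Chga counts were 7.94, 7.69, 13.2 and 13.0 in the scramble libraries, against 7.29, 6.996, 12.3 and 7.44 in the Klf4 siRNA libraries. The Klf4 siRNA libraries lay below both controls of their batch, by 0.105 on average on the log2 scale. Scg2 counts per 100 Chga counts were 45.7, 45.9, 70.1 and 67.5 in scramble and 49.0, 49.2, 75.2 and 51.7 in Klf4 siRNA libraries. Here the Klf4 siRNA libraries lay above both controls of their batch, by 0.127. Ttr counts per 100 Rbp4 counts were 31.9, 31.5, 50.9 and 49.2 in scramble and 34.5, 33.1, 52.6 and 36.7 in Klf4 siRNA libraries, a difference of 0.109. Because of that choice, these ratios are given as a description, without p-values.

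The genes that act around the granins were taken as 6 lists, and each count of calls is to be read beside the whole table, where 11.7% of the genes passed for Klf4 siRNA (6.81% lower and 4.88% higher) and 32.7% between batches (16.8% higher and 15.9% lower in batch 2). Of 10 prohormone processing genes 8 were tested, and 1 was lower and none higher, with a median log2 fold change of 0.0047. That gene was Ctsl, the protease cathepsin L, at -0.15 (SE 0.031, edgeR adjusted p = 0.0030). Pcsk2, which encodes PC2, the partner of Scg5, was at 0.011 (edgeR adjusted p = 0.883). Pcsk1 had 0 counts in all 8 libraries, where 3 counts would be up to 0.0637 CPM. Between batches 4 of these 8 genes were higher in batch 2 and none lower, among them Cpe (log2 fold change 0.32), the carboxypeptidase that trims cut peptides, and Pam (0.79), which amidates them.

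Of 12 granule membrane genes 10 were tested, and 1 was lower and 1 higher (median -0.034). Rab27a, a GTPase that docks granules at the plasma membrane, fell by 0.20 on the log2 scale (SE 0.031, edgeR adjusted p = 0.00014), and Slc30a8, the granule zinc transporter, rose by 0.16 (SE 0.032, edgeR adjusted p = 0.0024). All 12 granule formation genes were tested, with 1 higher and none lower (median 0.040). It was Ccdc186, a Golgi protein needed for granule maturation, at 0.12 (SE 0.031, edgeR adjusted p = 0.012), which did not pass without scramble replicate 2 (edgeR adjusted p = 0.0847), scramble replicate 1 or Klf4 siRNA replicate 3. Between batches 9 of the 10 membrane genes passed (6 higher and 3 lower in batch 2) and 3 of the 12 formation genes (1 higher, 2 lower).

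Among 18 other peptide cargo genes 8 were tested, with 1 lower, none higher and a median of -0.062. It was Gcg, which encodes proglucagon, at 1257, 1244, 8913 and 8833 CPM in scramble and 1065, 1074, 7640 and 1231 CPM in Klf4 siRNA libraries. Each Klf4 siRNA library was below both controls of its batch (log2 fold change -0.18, SE 0.041, edgeR adjusted p = 0.0095). The call was lost when Klf4 siRNA replicate 3 (edgeR adjusted p = 0.0931) or scramble replicate 1 was left out. Between batches the order of Gcg was that of Chgb, Scg2, Scg5 and Ttr, and its difference was larger, 6.97-fold. Of the 8 genes tested, 5 were higher and 1 was lower in batch 2.

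Of the 6 pathway lists, that of retinoid and thyroid hormone genes, which act with Rbp4 and Ttr, held the most calls for Klf4 siRNA. Of 22 listed, 13 were tested, and 4 were lower and none higher (against 6.81% and 4.88% of all genes tested), with a median of -0.055. Rxra, the retinoid X receptor alpha, was at 43.0, 38.6, 33.5 and 32.0 CPM in scramble and at 27.4, 27.1, 24.4 and 28.3 CPM in Klf4 siRNA libraries, without overlap (log2 fold change -0.52, SE 0.044, edgeR adjusted p = 1.01e-07). Thra, the thyroid hormone receptor alpha, fell by 0.20 (SE 0.032, edgeR adjusted p = 0.00021), and its span overlaps Nr1d1 on the opposite strand. Aldh1a1, which makes retinoic acid, fell by 0.15 (SE 0.035, edgeR adjusted p = 0.0082), and Cyp26b1, which breaks it down, fell by 0.60 (SE 0.15, edgeR adjusted p = 0.011) at a mean of only 1.30 CPM. Without scramble replicate 1 the edgeR adjusted p of Aldh1a1 was 0.0673 and that of Cyp26b1 was 0.107. Aldh1a1 also did not pass without scramble replicate 2, nor Cyp26b1 without Klf4 siRNA replicate 3. Between batches 8 of these 13 genes passed, 4 in each direction.

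Of 14 factors known to act on granin, Ttr or Rbp4 genes, 10 were tested, with 2 higher, none lower and a median of 0.051. Neurod1, an endocrine transcription factor, rose by 0.41 (SE 0.055, edgeR adjusted p = 0.0011), and its span overlaps Cerkl on the same strand and Gm26755 on the opposite strand. Rcor1, a corepressor that works with REST, was at 0.11 (SE 0.032, edgeR adjusted p = 0.029) and did not pass without scramble replicates 1 or 2 or Klf4 siRNA replicates 1, 2 or 3, each left out alone (edgeR adjusted p up to 0.184). Rest, the repressor that keeps granin genes silent outside neural and endocrine cells, had 0 counts in all 8 libraries, as did the liver factors Foxa1 and Cebpa. Hnf4a had at most 1 count. Between batches 7 of the 10 tested factors passed (3 higher and 4 lower in batch 2). Creb1, a cAMP-responsive factor that binds the palindrome shown above, was at 0.12 (edgeR adjusted p = 0.195). Of the other called genes of the lists, Rab27a overlaps Gm27186 on the same strand, and Ctsl (Gm49230) and Rcor1 (Gm48632) also overlap a gene on the same strand. On the opposite strand lie Gm47123 at Ctsl, Gm46379 at Rcor1, and C730002L08Rik and Gm6684 at Aldh1a1.

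**Figure D4:**
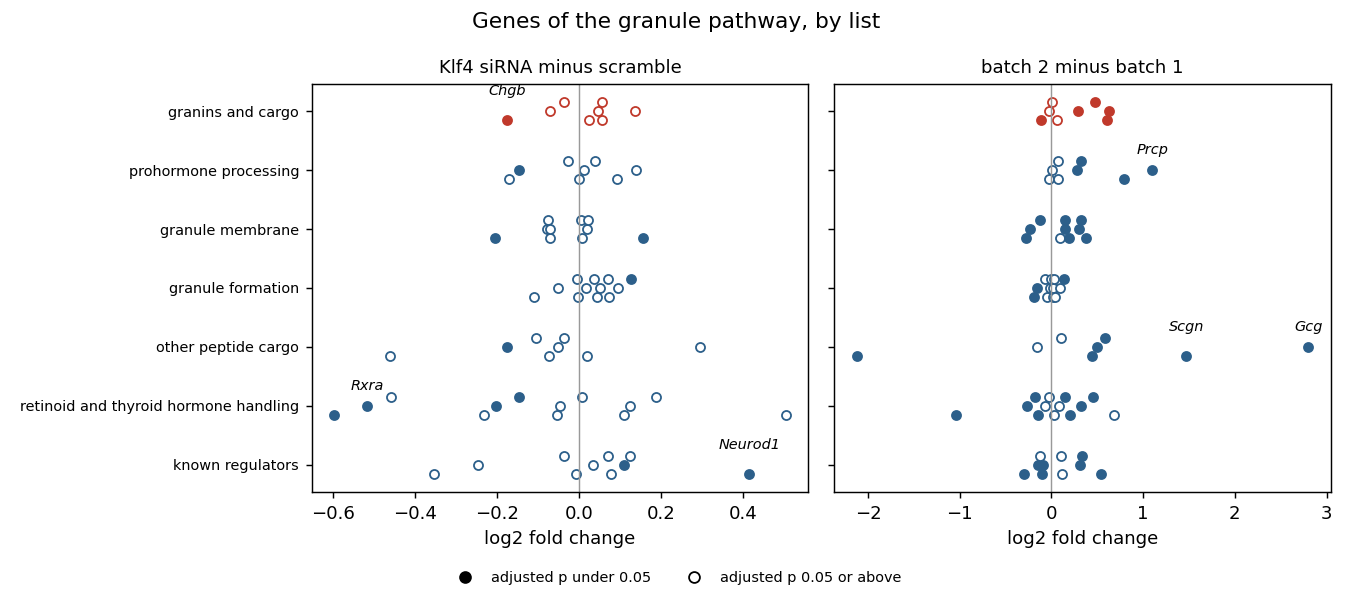
Log2 fold change of each tested gene of the 6 pathway lists, under the 8 granule genes in red, for Klf4 siRNA against scramble and for batch 2 against batch 1, with filled points at an edgeR adjusted p under 0.05. In the treatment panel Cyp26b1, Rxra and Neurod1 are the filled points farthest from 0, and in the batch panel Gcg lies far to the right.

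The genes whose course over the 8 libraries came closest to each of the 8 were found by the root mean square difference (RMS) of log2 CPM centred on each gene's mean, among 12714 genes with a mean of at least 1 CPM. Closest to Chgb were Stmn3 (RMS 0.0214), Serpini1 (0.0385) and Tubb4a (0.0462). Their own log2 fold changes after Klf4 siRNA were -0.19, -0.19 and -0.24, values near that of Chgb by the way they were chosen, since the same 8 libraries set the likeness. Closest to Chga were H3f3a (RMS 0.0203), Pdk2 (0.0210) and Cdkn2a (0.0217), and to Scg2 Stau2 (0.0300), Chpf (0.0319) and Rogdi (0.0325). Scg3 had Tmem147 (0.0105), Anp32e (0.0120) and Psma3 (0.0141), and Scg5 had Gaa (0.0161), Itm2b (0.0197) and Txndc12 (0.0229). Vgf had 1810058I24Rik (0.0392), Ramac (0.0398) and Cenph (0.0398), Ttr had Mt3 (0.0387), Dync1i1 (0.0468) and Gm47220 (0.0598), and Rbp4 had Mrpl15 (0.0154), Psma3 (0.0211) and Fcf1 (0.0217).

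Among the 8 genes themselves the closest pair was Scg3 and Rbp4 (RMS 0.0299), both level across batches, and next came Vgf and Rbp4 (0.0563). Scg2 and Ttr differed by 0.0861. The farthest pair was the 2 chromogranins, Chga and Chgb, at 0.381. A small RMS between genes that hardly vary says only that both are level, and 8 libraries in 2 batches give few independent points.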

How the data were processed

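Poly(A) RNA of 8 alphaTC6 libraries had been made with a Tecan Universal Plus kit, per the labels' protocols. The authors deposited raw counts, a whole number for each gene and library. Per the submitters' processing notes, the tools were FastQC, STAR, featureCounts and DESeq2 and the build mm10, without versions. The design text names edgeR with batch correction. The use of strand was not given in the sources used here, and counts without molecular identifiers include PCR duplicates. All 55536 identifiers matched GENCODE M21 (GRCm38).

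The low-count filter was filterByExpr by treatment (16333 genes remained), and libraries were scaled by TMM (factors 0.964 to 1.02). The robust quasi-likelihood model of edgeR 4.0.16 (R 4.3.3, limma 3.58.1), with terms for batch and treatment, had 5 residual degrees of freedom. Two-sided p-values were adjusted by Benjamini-Hochberg over all genes tested, with 0.05 as the threshold. An SE is the size of a log2 fold change over the square root of its F, and 95% intervals are not adjusted. CPM use the TMM-scaled library sizes, and changes within a batch compare mean log2 CPM (prior count 2). The fit was tested on simulated data. P-values measure the spread between these libraries, which may be in part technical. The 28 pairs of libraries differed by more than counting error (chi-square per degree of freedom 10.2 to 98.8).

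The 8 genes, the gene lists and the rules for naming genes (all 8, at most 4 called genes per list by adjusted p, and the 3 closest genes for each of the 8) were chosen with earlier results of these data known. Penk and the 3 ratios were added after their values had been seen. Alternatives were no batch term, batch 1 alone, scramble libraries alone for the batch, the size factors or the Wald test of DESeq2 1.42.0, limma-voom, scaling by library size alone, a replicate block, other filters and thresholds, and each library left out in turn. Promoters are from the RefSeq table of GRCm38.p6.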

Additional observations from a re-analysis of the deposited data

Results flagged for a closer look

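The Chgb level of Klf4 siRNA replicate 3 stood apart from the other Klf4 siRNA libraries: it was the highest of its 4, and its gap to the next was 0.922 of the group's whole range, above the critical share of 0.829. It is the only Klf4 siRNA library of batch 2, and both scramble libraries of that batch were also above both of batch 1. Of 16 groups examined, 1 was past the critical share. Chance gives about 0.8 where the libraries of a group are alike. These groups mix the batches, so that figure cannot be used to judge the result.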

How the results depend on the processing

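Under 256 alternative values for single genes, 237 had the direction and the side of the threshold of those reported, 5 lost a call, 2 gained one and 12 changed sign. The number of the 8 genes called for Klf4 siRNA was 0 without a batch term and 0 with a replicate block. It was 2 with the DESeq2 Wald test and 2 without a filter on low counts (Chgb lower and Ttr higher in both). Over all genes the number was 409 without a batch term, 1232 in batch 1 alone, 1220 with the replicate block, 997 at a threshold of 0.01 and 934 to 2021 with each library left out in turn (934 without scramble replicate 1, 1012 without scramble replicate 2 and 1232 without Klf4 siRNA replicate 3). The cause was not tested, apart from the fewer libraries of batch 1 alone and the stricter threshold.

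Sign changes after Klf4 siRNA were those of Scg2 (-0.067 without a batch term, -0.062 with the replicate block) and Ttr (-0.036 and -0.018). Between batches they were those of Scg3 (-4.434e-05 with DESeq2 size factors, -4.543e-05 with the DESeq2 Wald test, -0.035 with library size alone, and -0.018 to 0.028 with each library left out) and Rbp4 (0.014 in scramble libraries alone, 0.013 without Klf4 siRNA replicate 3, and -0.059 to 0.013 with each library left out). None of these had passed the test. The number of the 8 genes called between batches was 4 to 5 with each library left out. With the mean transcript length, 5 of the 8 genes had the same rank in the order per kilobase.

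The replicate numbers were not taken as pairs. Deviations from the treatment mean gave a correlation across genes of 0.492, 0.416 and 0.72 for the libraries numbered 1, 2 and 3, each pair lying within a single batch, and of -0.34 for those numbered 4, which lie in different batches. With the batch taken out they correlated at -0.000528, -0.0397, -0.302 and 0.116. With the replicate block, which leaves 3 residual degrees of freedom, Chgb was at -0.33 (edgeR adjusted p = 0.297). At these depths the counts of the 8 genes were limited by the spread between libraries and not by counting, and batch 2, with a single Klf4 siRNA library, limits what can be said of it alone.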

Other observations

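Penk, which encodes the opioid precursor proenkephalin, another granule cargo, was left out of the test by the filter on low counts and was looked at after its values had been seen. It had 5, 0, 1920 and 1938 counts in the scramble libraries, against 7, 9, 1618 and 1 in the Klf4 siRNA libraries (replicates 1 to 4). All 3 libraries of batch 2 were between 29.96 and 33.47 CPM, and all 5 of batch 1 were at or below 0.156 CPM. The Klf4 siRNA library of batch 2, at 30.72 CPM, lay between its 2 controls. The span of Penk overlaps A830012C17Rik on the opposite strand. Scgn, which encodes the calcium sensor secretagogin of endocrine cells, was also higher in batch 2 (log2 fold change 1.47, edgeR adjusted p = 4.11e-13), as was Prcp, a carboxypeptidase (1.10, edgeR adjusted p = 3.87e-10). What set the batches apart was not stated, and these values have no test of a cause.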
